A study of Mus musculus with 4 samples.

Results

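Cilia are microtubule-based projections of 2 general kinds. A primary cilium is a single immotile sensory antenna that most neurons and astrocytes carry, and it is built and supplied by the intraflagellar transport (Ift) particles and by the Bardet-Biedl (Bbs) proteins, which carry membrane receptors. A motile cilium, in the brain a feature of the ependymal cells that line the ventricles, adds further parts to its axoneme, the microtubule core. These are outer and inner dynein arms (Dnah heavy chains), radial spokes (Rsph) and a nexin-dynein regulatory complex (Drc). A central pair of microtubules with its projections (several Spag, Spef and Cfap proteins) is added as well. Here the RNA of these families was followed across the cell classes of the mouse lateral septum (LS), a forebrain nucleus beside the lateral ventricles. Members were all genes whose symbol begins with Dnah, Cfap, Spag, Spef, Drc, Rsph, Ift or Bbs followed by a digit or letter, without antisense symbols ending in "os", which gave 95 of the 32285 genes of the count tables. They comprised 33 Cfap, 15 Dnah, 14 Ift, 12 Spag, 8 Bbs, 8 Rsph, 3 Drc and 2 Spef genes, and every one of them had at least 1 UMI (unique molecular identifier, a count of captured RNA molecules).

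The data were single-nucleus RNA-seq libraries of the LS region of male mice aged 6 to 8 weeks, with 3 mice pooled per library. There were 2 libraries of C57BL/6JNifdc mice (C57J 1 and C57J 2), 1 of BALB/c nude mice, a T cell-deficient strain on the BALB/c background, and 1 of BALB/c mice, so both of the latter share their genetic background, and C57J 1 alone belonged to batch 1. Since a library is a pool and nude and BALB/c have 1 library each, these 2 strains were set together against the C57J libraries, and a difference between them was not tested. Values below are always given in the order C57J 1, C57J 2, nude, BALB/c, as CPM, the UMIs of a gene per 1000000 UMIs of the class in that library. The libraries held 72912922 to 125998527 UMIs in 12558 to 17025 barcodes, of which 10913 to 13075 nuclei were kept, at a median of 4270.0 to 8457.0 UMIs. Any pair of libraries shared 29 to 63 cell barcodes.

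Classes were formed from genes other than the 95 members, and their names come from marker genes, so each name stands for nuclei resembling that type. There were 21164 LS neuron-like nuclei, 10380 other neurons, 7333 astrocyte-like, 5278 oligodendrocyte-like (OL), 1863 oligodendrocyte precursor-like (OPC), 1327 microglia-like and 55 ependymal-like nuclei. Neurons were the deepest, at a median of 6196.5 to 12268.0 UMIs over the libraries, against 1727.0 to 3833.0 in OLs and 1328.5 to 2667.0 in microglia. RNA of neuronal markers was also counted in glia. The summed level of 4 neuronal markers (Snap25, Syt1, Rbfox3, Snhg11) reached 13.9 to 30.5% of its neuronal level in astrocytes, 15.2 to 37.0% in OLs, 14.2 to 26.8% in OPCs and 22.3 to 44.3% in microglia. A neuronal member found in glia at or below those shares is therefore not read as expression by the glia. The source of such RNA was not tested.

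The 95 members together supplied about as much RNA to LS neurons as to astrocytes, and many times more to ependymal-like nuclei. Their summed level in LS neurons was 2037, 2197, 2432 and 2337 CPM (mean 2250.4 ± 172, SD, n = 4 libraries), against 2080.5 ± 159 in the other neurons, 2358 ± 166 in astrocytes, 1611 ± 111 in OLs, 1753 ± 94.2 in OPCs and 1800.0 ± 193 in microglia. The ependymal-like nuclei stood at 29259 ± 9407. Families differed in how they were spread over the classes. Dnah genes summed to 258 ± 46.4 in LS neurons, 238 ± 30.4 in astrocytes, 210.0 ± 20.9 in OPCs, 79.9 ± 22.8 in OLs and 80.2 ± 36.5 in microglia. Ift genes, which serve both kinds of cilium, varied less among LS neurons, the other neurons, astrocytes, OLs, OPCs and microglia. Their sums ran from 405 ± 35.5 in microglia to 544 ± 42.1 in astrocytes, with LS neurons at 461 ± 11.3. In ependymal-like nuclei the Ift sum was 2.68 to 5.26 times that of all neurons, depending on the library. Among the same classes without the ependymal-like nuclei, Bbs genes ranged from 238 ± 6.5 in OPCs to 456 ± 98.0 in microglia. Bbs9 made most of the microglial sum. In the comparison given below it was the only Bbs gene called higher in microglia than in neurons, while several others were called lower. The 2 Spef genes summed to 57.4 ± 16.2 in OLs and 43.0 ± 12.4 in astrocytes against 9.1 ± 2.1 in LS neurons, and Spef2 made nearly all of that difference, at means of 54.8 in OLs, 39.2 in astrocytes and 6.49 in LS neurons. Spef1 had a mean of 2.65 both in OLs and in LS neurons. The plot of summed levels by class shows these differences together with every library.

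**Figure D1:**
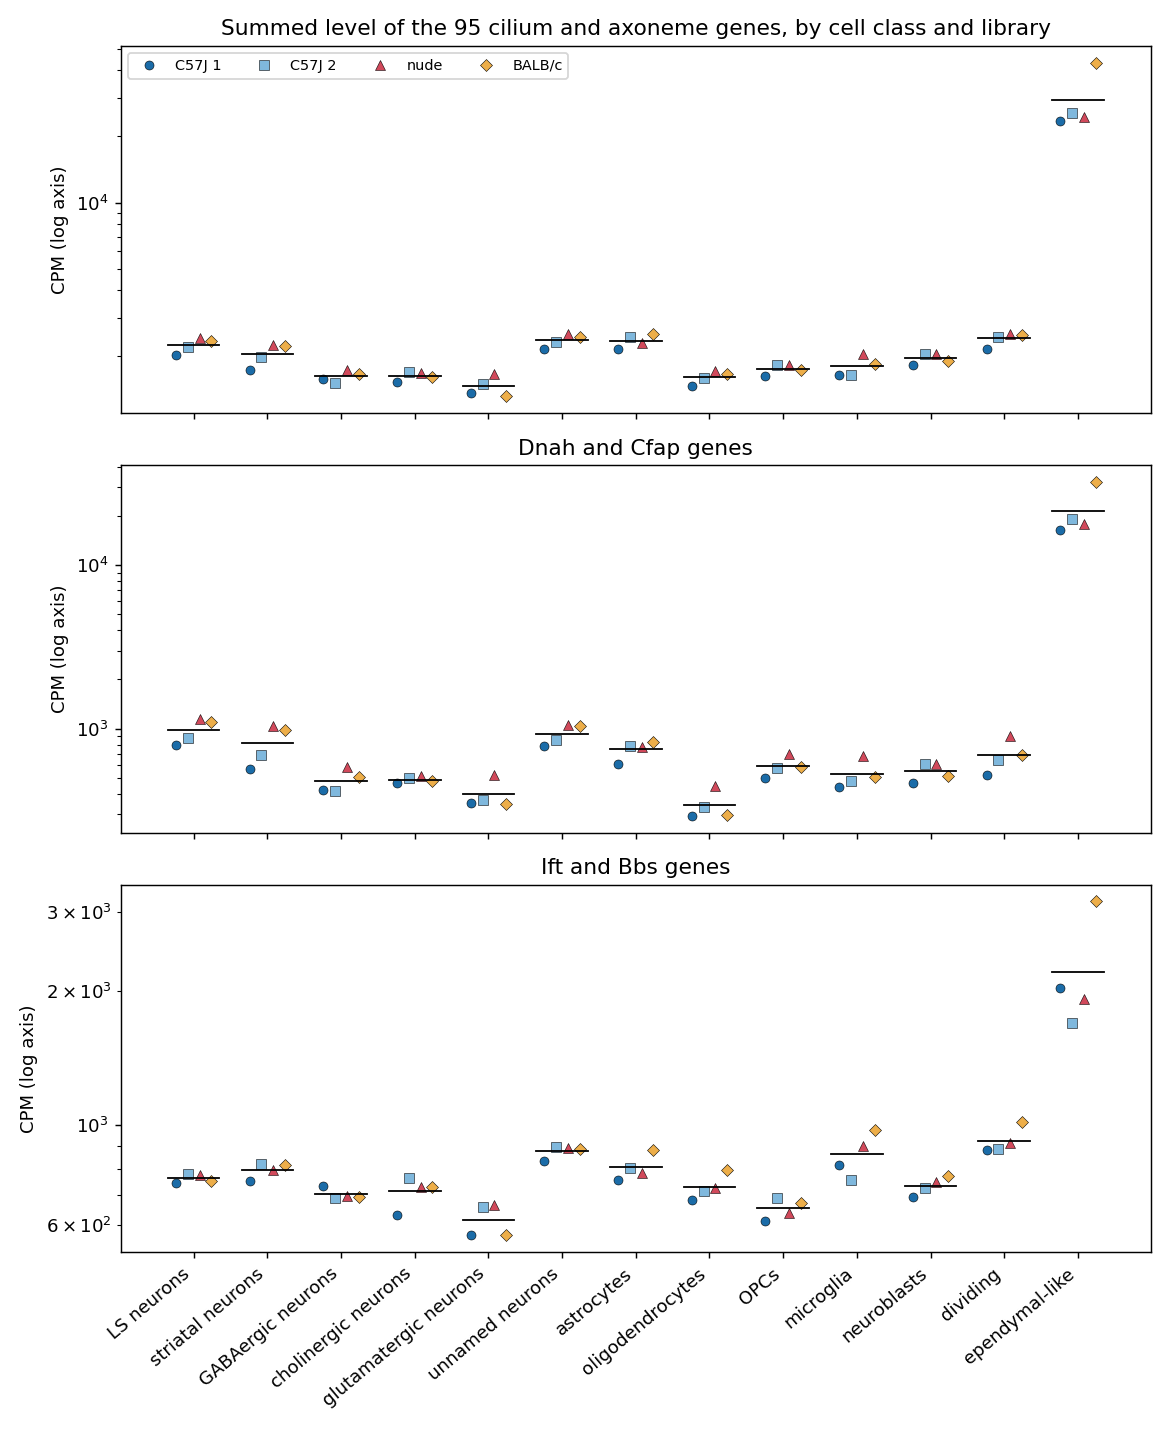
Summed level of the members by cell class, in CPM on log10 axes, for all 95 members (top), Dnah and Cfap genes (middle) and Ift and Bbs genes (bottom), with 1 point per library and a bar at the mean of the 4. In the top panel the ependymal-like nuclei lie at a mean of 29259, and the means of the other classes shown lie between 1459 (glutamatergic neurons) and 2413 (dividing nuclei).

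Single members were far from even. Spag9, which encodes a JNK-pathway scaffold and motor adaptor and not a part of the axoneme, was the most abundant member over all nuclei with 93167 UMIs, followed by Cfap54 with 49757 and Bbs9 with 43952. Spag11a and Spag11b, beta-defensin-like genes of the epididymis, had 3 UMIs and 1 UMI. Longer genes had more UMIs (r = 0.43 between log10 gene length and log10 level in LS neurons, across the 95 members, as a description). Levels in LS neurons are therefore also compared between genes per kilobase of gene. On that scale Cfap36 (4.10 CPM per kb in LS neurons), Ift20 (4.05) and Cfap20 (3.57) led, ahead of Spag9 (1.99) and well ahead of Cfap54 (0.619), a gene of 306.0 kb. Astrocytes had Spag9 at 518, 521, 502 and 534 CPM. That was above LS neurons in every library, where its mean was 259. The summed levels given above include Spag9 and were not recomputed without it.

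Ependymal-like nuclei had the highest summed level of the Dnah, Cfap, Drc, Rsph and Spef families by a wide margin. The 55 nuclei came from all libraries (24, 10, 11 and 10) and together held 295847 UMIs, so their values are given as pooled levels with exact 95% Poisson intervals, which cover counting error only. By CPM, not scaled by gene length, Cfap299 was the highest member with 788 UMIs (2664 CPM, interval 2481 to 2856). All neurons had 3.30 CPM of it, a ratio of 807. Dnah12, an inner-arm heavy chain, had 657 UMIs (2221 CPM, interval 2054 to 2397) and a ratio of 682 to neurons. The central-pair gene Spef2, with 325 UMIs, stood 202 times above neurons, and the outer-arm gene Dnah11, with 260 UMIs, 163 times. Other abundant members were Cfap54 (539 UMIs), Spag16 (487), Dnah6 (316), Dnah9 (311), Cfap44 (304) and Cfap43 (245). Ratios to neurons were far smaller where neurons also had the RNA, at 10.5 for Cfap54 and 12.5 for Dnah9. Bbs genes differed least, at 554 ± 219 CPM in ependymal-like nuclei, which was 0.72 to 2.38 times their neuronal level depending on the library. The 7 ependymal markers used for naming (Fam216b, Foxj1, Tmem212, Ccdc153, Rarres2, Dynlrb2, Ak7) summed to 3269 ± 1355 CPM here and to 7 ± 2 in LS neurons.

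A short sequence recurred before the start sites of members. It is a palindrome of the kind bound by RFX factors, which are known regulators of cilium genes, and was searched as GTTNCNNGNAAC, GTTNCNNNGNAAC or GTTNCNNNNGNAAC in the 300 bases around each start site (250 before and 50 after) listed by RefSeq for GRCm38.p6. Each form is its own reverse complement, so both strands are covered, and the letters were chosen after some of the members' sequences had been seen. Of 95 members, 78 had a listed promoter, and 16 of these (20.5%) held the motif, against 715 of 27025 genes in all (2.65%). The share was 35.7% for Dnah genes (5 of 14) and 10.5% for Ift and Bbs genes (2 of 19). A match is a description of letters and not a binding site. For 4 of the members with a match, the 250 bases before the start site are shown, with the motif in capitals. They were picked among the matching members because their RNA enters the comparisons that follow. They are Dnah7a and Dnah6 (inner-arm heavy chains that differed between strain backgrounds), Dnah9 (an outer-arm heavy chain higher in LS neurons than in other neurons) and Spag16 (a central-pair protein higher in Esr1 Otx2os1 LS neurons). All coordinates are on GRCm38, at chr1:53706785-53707034 on the minus strand for Dnah7a, chr6:73221632-73221881 on the minus strand for Dnah6, chr11:66168552-66168801 on the minus strand for Dnah9 and chr1:69826720-69826969 on the plus strand for Spag16. 
Dnah7a: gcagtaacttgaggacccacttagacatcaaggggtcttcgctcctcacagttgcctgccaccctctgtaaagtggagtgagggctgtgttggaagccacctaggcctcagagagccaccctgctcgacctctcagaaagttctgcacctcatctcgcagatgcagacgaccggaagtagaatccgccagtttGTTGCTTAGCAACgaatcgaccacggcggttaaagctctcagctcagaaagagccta
Dnah6: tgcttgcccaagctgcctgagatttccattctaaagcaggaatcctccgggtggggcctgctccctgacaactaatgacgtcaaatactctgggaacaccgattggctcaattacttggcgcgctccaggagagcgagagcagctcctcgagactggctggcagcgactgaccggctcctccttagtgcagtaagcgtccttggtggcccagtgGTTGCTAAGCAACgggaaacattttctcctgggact
Dnah9: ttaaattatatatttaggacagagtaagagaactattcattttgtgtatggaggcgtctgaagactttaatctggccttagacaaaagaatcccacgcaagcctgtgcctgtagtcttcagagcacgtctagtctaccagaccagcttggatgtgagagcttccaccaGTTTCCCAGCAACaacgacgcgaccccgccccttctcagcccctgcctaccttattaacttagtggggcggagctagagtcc
Spag16: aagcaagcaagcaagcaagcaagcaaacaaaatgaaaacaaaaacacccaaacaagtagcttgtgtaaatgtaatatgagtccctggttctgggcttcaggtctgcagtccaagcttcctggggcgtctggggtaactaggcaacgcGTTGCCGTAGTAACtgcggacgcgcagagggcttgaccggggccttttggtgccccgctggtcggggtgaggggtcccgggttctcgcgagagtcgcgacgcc
Dnah7b, a near-identical copy of Dnah7a, held the same 13 letters. Other members that enter these comparisons, Cfap46, Cfap61, Rsph3b, Spag17 and Dnah5, had 0 matches in the 250 bases before the start site. In the whole 300 bases Cfap61 and Rsph3b had 1 each. Cfap54 had no listed promoter.

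Cfap54 encodes a central-pair protein and lies on the minus strand of chromosome 10 (chr10:92775619-93081618). Its level split by strain background in each of the 13 classes examined. Endothelial-like nuclei (102), newly forming oligodendrocytes (122) and nuclei left unnamed outside the neurons (786) were not among these classes. In LS neurons it was 74.2 and 83.6 CPM in the C57J libraries and 280 and 276 in the nude and BALB/c libraries. In astrocytes it was 34.6, 43.1, 113 and 123, and in OPCs 21.9, 23.1, 98.6 and 76.9. The nude and BALB/c libraries lay above both C57J libraries in 13 of 13 classes and in 25 of 25 subclusters of LS neurons, and the groups overlapped in none of them. Ranked by mean level, the ependymal-like nuclei were first (1232, 1374, 1843 and 2765). Striatal neurons (218) and LS neurons (178) came next and did not keep 1 order, since striatal neurons were higher in 2 of 4 libraries. LS neurons then exceeded the unnamed neurons (146) in 4 of 4 libraries, and these exceeded the dividing nuclei (78.8) in 4 of 4. Below them the neighbours dividing nuclei, astrocytes (78.5), neuroblasts (64.8), GABAergic neurons (59.1), OPCs (55.1), microglia (37.5), cholinergic neurons (31.2), OLs (29.97) and glutamatergic neurons (27.9) were not separated, each exceeding the next in 1 to 3 of 4 libraries. OLs had 9.64, 17.7, 63.1 and 29.4, which is 11.6 to 24.4% of their library's neuronal level and below the share of the neuronal markers in each library. Microglia had 29.4, 18.4, 70.4 and 31.8, which relative to neurons lay below the highest share of neuronal marker RNA in microglia. The split of Cfap54 in OLs and microglia is therefore not read as a difference in expression by these glia.

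Dnah7a encodes an inner-arm dynein heavy chain and lies on the minus strand of chromosome 1 (chr1:53397006-53706784). It showed the same split at a lower level. LS neurons had 8.99, 9.24, 50.4 and 42.5 CPM, so the nude and BALB/c libraries were several times higher and did not overlap with C57J. The same held in 12 of 13 classes and in 25 of 25 LS subclusters, with glutamatergic neurons (2.80, 4.15, 19.3 and 3.57) as the exception. Some classes held few UMIs of Dnah7a, at 4, 3, 23 and 26 in OLs and 3, 4, 26 and 38 in OPCs. Glutamatergic neurons had 3, 5, 15 and 8 UMIs. Whether the split in such a class exceeds counting error was not tested. The 12 classes with the split include OLs (1.24, 1.003, 11.08 and 4.13) and microglia (3.27, 3.68, 10.36 and 11.01). Relative to neurons, both lay below the highest share of neuronal marker RNA in their class. Their split is therefore not read as a difference in expression by these glia. By mean level the order was ependymal-like nuclei (655), unnamed neurons (38.9) and LS neurons (27.8), each above the next in 4 of 4 libraries, except that LS neurons exceeded the dividing nuclei (22.2) in only 3. All lower classes lay between 4.37 (OLs) and 11.98 (astrocytes), and their neighbours were not separated. Astrocytes had 4.55, 9.82, 15.8 and 17.8.

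**Figure D2:**
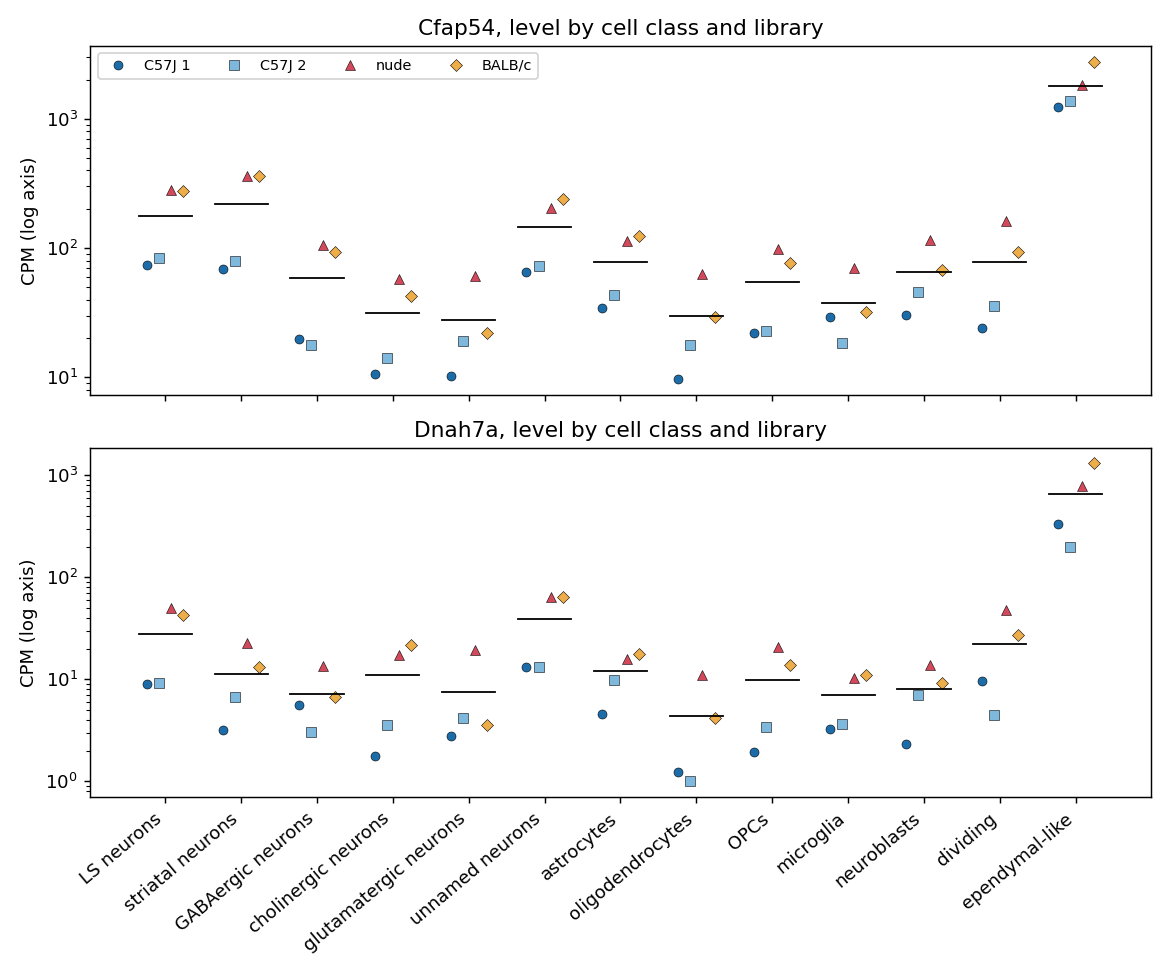
Levels of Cfap54 and Dnah7a in each cell class, in CPM on log10 axes, with 1 point per library and a bar at the mean of the 4. The nude and BALB/c points lie above both C57J points in all 13 classes shown for Cfap54 and in 12 for Dnah7a.

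The reads of Dnah7a, Dnah7b and Dnah7c may be divided unevenly, since the 3 genes are near-identical copies, so their sum is given as well. In LS neurons the sum was 47.3, 60.3, 108 and 88.1 CPM, with the nude and BALB/c libraries again above both C57J libraries. Dnah7b and Dnah7c without Dnah7a gave 38.3, 51.0, 57.5 and 45.6, and there the groups overlapped. In astrocytes, where Dnah7b was the main copy (116, 151, 132 and 150), the sum of all 3 was 139, 175, 160 and 182 and the groups overlapped too.

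Next, strain backgrounds were compared in each class over all genes, with edgeR's quasi-likelihood test, the nude and BALB/c libraries against the C57J libraries. Calls required an adjusted p (Benjamini-Hochberg, over all genes tested) under 0.05 together with a log2 fold change beyond 0.5 in either direction. In LS neurons 6 of the 91 members tested passed, of which 5 were higher on the nude and BALB/c side and 1 lower, against 2.45% of all genes tested (1.05% higher, 1.41% lower). The median log2 fold change was 0.02 for the members and -0.01 for all genes. Dnah7a was higher by 2.37 on the log2 scale (SE 0.12, adjusted p = 0.00063) and Cfap54 by 1.84 (SE 0.08, adjusted p = 0.00047). Dnah6, another inner-arm heavy chain, had 5.38, 7.54, 28.9 and 24.4 CPM, a log2 difference of 2.07 (SE 0.18, adjusted p = 0.0034). Cfap61, a protein tied to the radial spokes, had 10.8, 13.2, 29.97 and 32.6, higher by 1.41. Cfap46, which like Cfap54 sits on the central pair, had 14.6, 15.6, 36.9 and 38.4, higher by 1.34. In all of these the nude and BALB/c libraries were the high ones and did not overlap with C57J. The member that fell was Rsph3b, a radial-spoke stalk gene, with 14.6, 13.8, 5.45 and 4.37, lower by 1.51 on the log2 scale (log2 fold change -1.51, SE 0.17, adjusted p = 0.0084). Its near-identical copy Rsph3a had 14.9, 19.999, 20.5 and 18.6, and the sum of both, 29.6, 33.8, 25.99 and 23.01, still put the nude and BALB/c libraries below both C57J libraries.

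Of the 22 Ift and Bbs genes, edgeR called 0 between backgrounds in LS neurons (1 at an unadjusted p below 0.05), against 2.45% of all genes. In the other neurons it called 0 (2 at that p), against 0.902% of all genes, and DESeq2 called 0 in both. At shares this low, 0 calls among 22 genes is not read as a result about these families. In LS neurons Cfap61, Dnah6 and Rsph3b were not called without the nude library. Without the BALB/c library neither these nor Cfap46 were called. With 1 library left out at a time, the log2 difference was 1.78 to 1.91 for Cfap54 and 2.27 to 2.49 for Dnah7a. Within batch 2, that is without C57J 1, Cfap54 had a log2 difference of 1.78 and Dnah7a of 2.38. The mice differ in genotype across the whole genome, so strain and immune state cannot be told apart here. Apart from the calls, the libraries of the 2 backgrounds did not overlap in LS neurons for 26 members on the higher side and 21 on the lower side of 91. These are 28.6% and 23.1%, against 19% and 26.4% of all genes.

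The other classes use the same 4 libraries, so their values are listed beside those of LS neurons and not as independent replication. In the other neurons 5 of 88 members were called (4 higher, 1 lower), against 0.902% of all genes (0.41% higher, 0.492% lower). They were Cfap54 (58.3, 60.7, 198 and 199, log2 difference 1.74), Dnah7a (8.00, 9.46, 46.4 and 35.5, 2.24), Dnah6 (2.79, 3.09, 13.1 and 11.9, 2.09), Cfap46 (21.0, 23.5, 55.0 and 51.3, 1.26) and Rsph3b (13.3, 12.9, 5.27 and 3.94, -1.52). Dnah8, an outer-arm heavy chain, had 0.379, 0.394, 4.57 and 2.18 there and missed the limit (edgeR adjusted p = 0.054). In OPCs 2 of 44 members were called, against 0.395% of all genes, and both were higher in the nude and BALB/c libraries. They were Cfap54 (log2 difference 2.02, SE 0.23, adjusted p = 0.0013) and Dnah7a (1.93, 3.42, 20.5 and 13.7, log2 difference 2.71, SE 0.51, adjusted p = 0.047). Neuronal marker RNA in OPCs stood at 14.2 to 26.8% of its neuronal level, and the part of neuronal RNA in both calls was not tested. The C57J side of Dnah7a in OPCs rested on 3 UMIs in C57J 1 and 4 in C57J 2. Dnah7a was not called there by DESeq2, with batch as a term or with stricter limits on nuclei. Nor was it called without C57J 1 (log2 difference 2.33).

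**Figure D3:**
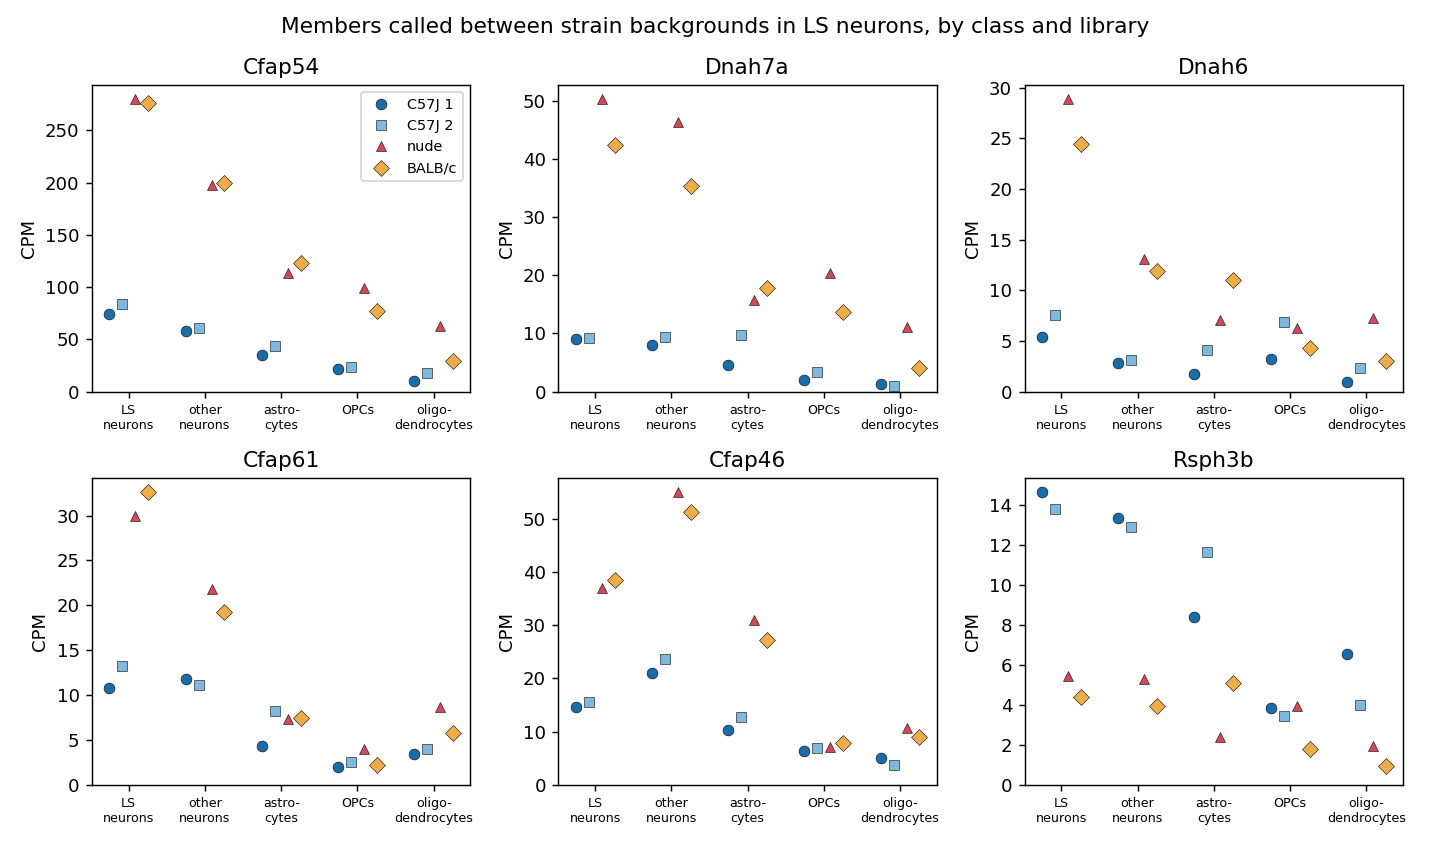
Levels of the 6 members called between strain backgrounds in LS neurons, in CPM on linear axes that start at 0, in 5 classes with 1 point per library. In LS neurons the nude and BALB/c points lie above both C57J points for 5 genes and below them for Rsph3b.

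In astrocytes edgeR called 0 of 75 members, against 0.0567% of all genes (0.00708% higher, 0.0496% lower). In that fit 9 members had an unadjusted p below 0.05, and DESeq2 called 2 (Cfap46, Cfap54). Cfap54 had a log2 difference of 1.68 (SE 0.18, edgeR adjusted p = 0.055), Cfap46 of 1.41 (10.3, 12.7, 31.0 and 27.1, adjusted p = 0.11) and Dnah6 of 1.79 (1.75, 4.13, 7.10 and 10.96, adjusted p = 0.44). With 1 library left out at a time, the log2 difference in astrocytes was 1.54 to 1.83 for Cfap54 and 0.86 to 1.95 for Dnah7a. In OLs edgeR called 0 of 60, against 0.00793% of all genes, with 4 at an unadjusted p below 0.05 and 1 (Cfap54) called by DESeq2. For both classes, the shares of all genes at an unadjusted p below 0.05 and by DESeq2 are not given here. The counts of members at these limits are therefore not read as a result about the members. On counts simulated for these comparisons, the test recovered 50% of genes with a true log2 difference of 1 in LS neurons, 20% in astrocytes and 17% in OLs, and 93%, 88% and 88% of those with a true log2 difference of 2. Each simulation changed 100 genes at each of these sizes, while the real fits called 8 genes in astrocytes and 1 in OLs. An adjusted p limit is easier to reach among many changed genes. The recovered shares may therefore be too high for the real fits in astrocytes and OLs. Genes without a true difference were also called in the simulations, 8 in LS neurons, 20 in other neurons and 11 each in astrocytes, OLs and OPCs. The difference between classes in the effect of strain was not tested.

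LS neurons were then set against the other neurons of the same libraries, with the library as a block in the edgeR fit. Of 89 members tested, 16 were higher and 5 lower in LS neurons, against 9.26% and 12.5% of all genes, and the median log2 fold change was 0.12 for the members and -0.02 for all genes. Of the 15 dynein heavy chains 5 were higher (Dnah1, Dnah6, Dnah9, Dnah11, Dnah14), and of the 10 central-pair genes 4 (Cfap54, Cfap74, Spag6l, Spef2), with none lower in either group. Of the 22 Ift and Bbs genes 0 were called by edgeR or by DESeq2. Their log2 differences ran from -0.36 to 0.30, and 15 had an unadjusted p below 0.05. At a finer clustering the split was 9 higher and 11 lower, and the cause of that change was not tested. Because classes were formed from other genes of these same nuclei, p-values between classes describe the spread between libraries and not the forming of the classes.

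Dnah9 was the clearest of these, at 95.8, 104, 108 and 99.8 CPM in LS neurons and 38.3, 40.6, 45.2 and 35.9 in other neurons, a log2 difference of 1.43 (SE 0.05, adjusted p = 8.1e-07). Every LS value lay above every value of the other neurons. Cfap65, a gene of sperm flagella, had 13.1, 12.7, 13.1 and 13.6 against 6.72, 6.44, 5.34 and 5.20 (log2 difference 1.24). Dnah14 (1.38), Dnah6 (1.17), Dnah1 (0.93) and Spef2 (0.92) were also higher, and for Dnah6 both classes were split by strain. The lower members were Spag5 (-1.65), a mitotic spindle protein, Cfap100 (-1.10), a regulator of inner arms, Cfap99 (-0.99), Rsph4a (-0.71), a spoke-head protein, and Spag4 (-0.68), a nuclear envelope protein. All 5 were scarce in both classes, with means from 0.490 to 4.53 CPM. Cfap54 was higher in LS neurons by 0.53. Dnah7a differed by 0.23 and was not called.

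A further comparison concerned the LS neurons with Esr1 and Otx2os1, 2 of the 25 LS subclusters with 2322 nuclei (432, 553, 831 and 506). Esr1, the estrogen receptor alpha gene, stood at 87.5 to 108 CPM in them and at 5.78 to 7.33 in the remaining 18842 LS nuclei, and Otx2os1, an antisense RNA, at 213 to 250 and 10.4 to 19.6, which describes how they were chosen. Their members summed to 2920.5 ± 285 CPM against 2183 ± 151, a ratio of 1.28 to 1.40 in each library. Of 89 members tested, 30 were higher and 2 lower, against 6.32% and 7.12% of all genes. The median log2 fold change was 0.25 for the members and 0.01 for all genes. The calls lay mostly outside the Ift and Bbs families, where 29 of the 67 members were higher. Of the 22 Ift and Bbs genes 1 was higher (Ift81, a tubulin-binding IFT-B subunit).

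By role, 7 of 15 dynein heavy chains were higher and 1 lower, 5 of 10 central-pair genes higher and 1 lower, 3 of 7 radial-spoke genes higher (Rsph3b, Rsph4a, Rsph9), and 2 of 3 genes of the nexin-dynein regulatory complex (Drc1, Drc7). The 6 BBSome genes had log2 differences of 0.08 to 0.50 and the 3 IFT-A genes of -0.04 to 0.17. Both edgeR and DESeq2 called 0 of these 9, of which 4 BBSome genes and 1 IFT-A gene had an unadjusted p below 0.05 in edgeR. Spag16, the central-pair protein whose promoter is printed above, had 115, 129, 144 and 92.6 CPM against 34.9, 41.3, 45.4 and 24.99 (log2 difference 1.62, SE 0.05, adjusted p = 4.4e-19). Dnah7b had 74.0, 118, 114 and 96.1 against 29.1, 36.0, 40.1 and 31.6 (1.45, SE 0.06). Both were higher in 4 of 4 libraries with no overlap between the classes. Dnah5, an outer-arm heavy chain, had 19.3, 21.1, 24.6 and 25.7 against 6.05, 7.14, 8.35 and 7.11 (1.57, SE 0.10). Spag17, another central-pair protein, had the largest difference, 2.31 (SE 0.20), at low levels of 5.47, 10.97, 6.21 and 7.34 against 1.46, 1.73, 0.995 and 1.43. Spag6 (1.75) and the microtubule inner protein gene Cfap52 (1.49) followed at still lower levels.

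Dnah7a was higher in these neurons within each background, at 15.1, 13.0, 98.3 and 90.0 against 8.56, 8.86, 44.7 and 37.5 (log2 difference 1.00, SE 0.07, adjusted p = 2.1e-11). The C57J values of the Esr1 Otx2os1 neurons nevertheless lay below the nude and BALB/c values of the other LS neurons. Cfap54 differed by 0.30 (edgeR adjusted p = 1.1e-05), below the fold limit. The 2 members that were lower were Cfap74, a central-pair gene, with 17.04, 22.2, 18.003 and 23.2 against 29.1, 31.4, 26.03 and 28.8 (-0.60), and Dnah3 (-1.02), which had under 3 CPM throughout.

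**Figure D4:**
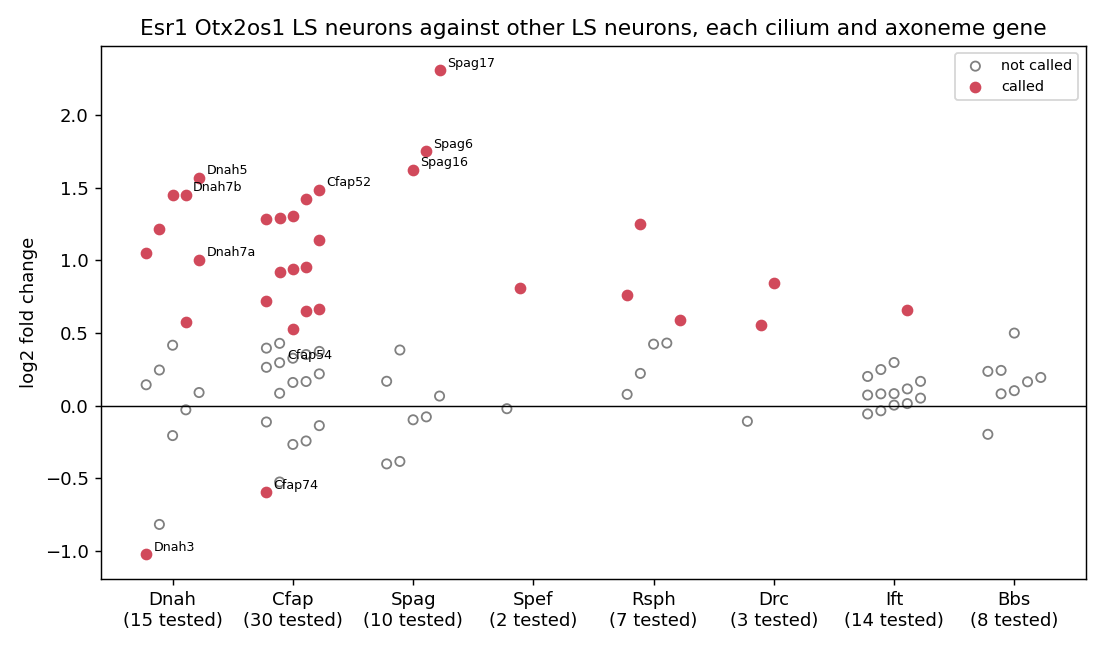
Log2 fold changes of the 89 members tested between Esr1 Otx2os1 LS neurons and the other LS neurons, grouped by family, with called members as filled points and the others as open circles. Of the 30 higher calls, 29 lie outside the Ift and Bbs families and 1 is an Ift gene (Ift81).

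Ependymal marker RNA was low in both groups. The 7 ependymal markers summed to 10.3, 9.19, 7.04 and 8.03 CPM in Esr1 Otx2os1 LS neurons, against 7.76, 8.19, 4.29 and 6.62 in the other LS neurons. They lay at 0.15 to 0.37% of their ependymal-like level, against 0.13 to 0.29% in other LS neurons, and were higher in the Esr1 Otx2os1 neurons in 4 of 4 libraries. Fam216b had 0, 0, 0 and 2 UMIs there and 2, 2, 4 and 7 in the other LS neurons. Foxj1, a transcription factor that directs motile cilium formation, had 1.29, 1.48, 1.24 and 1.57 CPM against 1.18, 0.731, 0.340 and 0.662 (log2 difference 0.93, SE 0.36, edgeR adjusted p = 0.056). The other 5 markers tested had log2 differences from -0.14 to 0.63 and adjusted p from 0.27 to 0.87. With nuclei holding an ependymal marker UMI left out, all 30 higher calls remained. This left out 28 of 432, 29 of 553, 32 of 831 and 44 of 506 Esr1 Otx2os1 nuclei. At such low marker levels a nucleus can hold ependymal RNA without a marker UMI. The part of such RNA in the calls was therefore not tested by this step. Median depth was lower in the Esr1 Otx2os1 nuclei (5361.0 to 10371.0 UMIs) than in the other LS nuclei (6862.0 to 13207.0), and its part in the result was not tested. A fit without the library block called 22 of the 30 higher, and at a finer clustering 19 of the 30 remained.

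Cilium genes outside the naming rule were counted in the same comparison, where 6.32% of all genes were higher and 7.12% lower. Of 17 other motile-cilium genes tested, 8 were called, each of them higher. They included Hydin, a central-pair protein (log2 difference 1.19), the tektins Tekt1 (1.59), Tekt2 (1.53) and Tekt4 (1.49), which line the inside of the doublet microtubules, and Enkur (0.91). Of 30 other primary-cilium genes, 1 was called, Mks1, a transition-zone protein (0.95 higher on the log2 scale).

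Across the 25 LS subclusters the summed member level was highest, at 3432 ± 313 CPM, in a subcluster led by Calcr, Vwa5b1 and Htr7 (425 nuclei), which lay above both Esr1 Otx2os1 subclusters (3052 ± 313 and 2822 ± 277). The members other than Ift and Bbs ran from 952 to 2461 over the subclusters, and Ift and Bbs genes together from 598 to 972. The ependymal markers were at 8.5 CPM in the Calcr Vwa5b1 Htr7 subcluster. No test was made among subclusters.

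**Figure D5:**
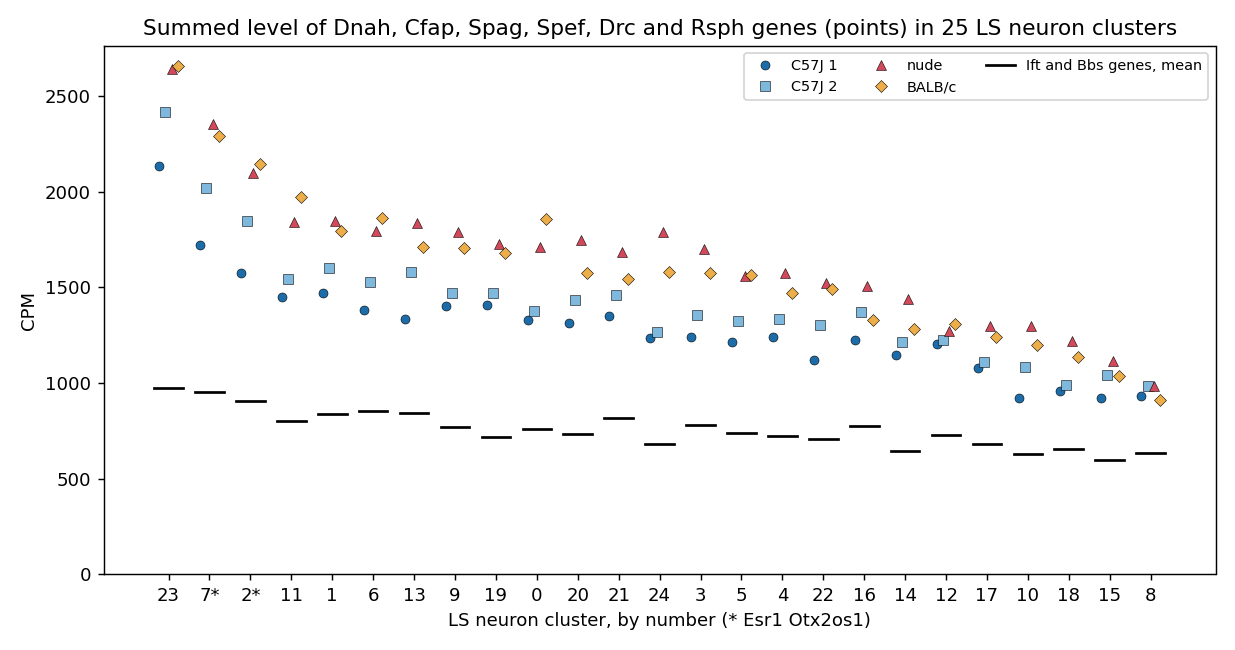
Summed level, in CPM, of the members other than Ift and Bbs (1 point per library) and mean summed level of the Ift and Bbs genes (bars) in the 25 subclusters of LS neurons, ordered by the mean of the points. The Calcr Vwa5b1 Htr7 subcluster (number 23) is highest at a mean of 2461, followed by both Esr1 Otx2os1 subclusters (asterisks).

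Glia were each compared with all neurons of the same libraries, so these 4 comparisons share the neurons. Most called members were lower in glia. Fold changes come from the fit, whose scaling of the sums (TMM) can move them away from the ratios of the printed CPM. In astrocytes 54 of 89 were called, 18 higher and 36 lower, against 53% of all genes (26.2% and 26.8%). In OLs 57 were called, 7 higher and 50 lower, against 53.2% (24.2% and 29%). In OPCs 52 were called, 10 higher and 42 lower, against 40.4% (19.8% and 20.7%). In microglia 49 were called, 3 higher and 46 lower, against 47% (19.8% and 27.2%). By family, 5, 9, 7 and 12 of the 22 Ift and Bbs genes were lower in astrocytes, OLs, OPCs and microglia (22.7%, 40.9%, 31.8% and 54.5%), against 31, 41, 35 and 34 of the 67 other members (46.3%, 61.2%, 52.2% and 50.7%). The median log2 fold change of the members was -0.33 in astrocytes, -0.87 in OLs, -0.68 in OPCs and -1.25 in microglia, against -0.04, -0.08, -0.05 and -0.24 for all genes. The mean share of neuronal marker RNA in a class served as an upper limit for its lower members. Within it lay 18 of 50 in OLs, 21 of 46 in microglia, 15 of 42 in OPCs and 5 of 36 in astrocytes. Their remaining level there is not read as glial expression, and its source was not tested. At the highest share over the libraries these counts were 31, 28, 16 and 6.

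Several of the members higher in astrocytes than in neurons were also higher in other glia. Cfap100, Dnah7b and Spag5 were higher in OPCs too, and Spef2 and Dnah14 in OLs. Cfap100 had 17.3, 26.3, 14.2 and 27.7 CPM against 0.675, 1.19, 0.955 and 0.845 in neurons (log2 difference 4.40, SE 0.21, adjusted p = 3.4e-06). Dnah7b had 116, 151, 132 and 150 against 30.9, 40.8, 48.6 and 35.03 (1.68, SE 0.12). Both were higher in 4 of 4 libraries with no overlap. Spag5 (3.10), Spef2 (2.66), Dnah14 (2.44) and Cfap97d2 (1.80) rose as well. The IFT-B genes Ift27, Ift57 and Ift80 and the BBSome gene Bbs2 were higher too. The lower members included Dnah9, with 15.7, 17.6, 22.6 and 14.7 against 77.9, 85.6, 91.9 and 81.7 (-2.43), and Spag6l (-2.76), Spag6 (-2.69), Dnah1 (-2.57), Cfap65 (-2.47) and Rsph14 (-1.98). Cfap54 was lower by 1.18 (log2 fold change -1.18) and Dnah7a by 1.16 (-1.16). The ependymal markers summed to 24 ± 5 CPM in astrocytes against 7 ± 2 in LS neurons, and 6 of the 6 tested were called higher. Their part in the astrocyte values was not tested.

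OLs were led by Spef2, at 50.4, 56.8, 36.1 and 75.8 CPM against 4.53, 8.02, 5.89 and 4.18 in neurons (log2 difference 3.24, SE 0.27, adjusted p = 2.1e-05). Dnah8 (2.62), Dnah14 (2.47) and Cfap126 (1.76) followed at low levels. Among transport genes, the IFT-A gene Ift43 had 105, 102, 84.3 and 141 against 39.3, 39.8, 41.5 and 45.8 (1.29, SE 0.13), and Ift46 rose by 0.64. Every OL value of Ift43 and Spef2 exceeded every neuronal one. The most lowered members were Rsph14 (-3.14), Spag6l (-3.06), Cfap44 (-2.91), Dnah7a (-2.87), Dnah9 (-2.72) and Drc1 (-2.69), and Cfap54 was lower as well (-2.60). The ependymal markers Foxj1 (2.12), Rarres2 (1.71), Ccdc153 (1.14) and Tmem212 (1.12) were called higher in OLs, while Dynlrb2 (0.92) and Ak7 (0.03) were not. Their part in the OL values was not tested.

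In OPCs, Dnah5 had 28.9, 40.1, 46.5 and 36.4 CPM against 7.51, 11.4, 10.7 and 8.56 in neurons (log2 difference 1.94, SE 0.13, adjusted p = 5.3e-09). Dnah7b had 95.2, 108, 99.4 and 92.0 (1.30), Cfap100 14.1, 5.12, 10.3 and 13.4 (3.56) and Bbs10, a chaperonin-like gene, 4.502, 2.56, 5.52 and 2.17 (0.99). Cfap126 (1.79) and Spag5 (1.79) were also higher. Cfap161 was the most lowered (-3.83), with 0 UMIs in 3 of 4 OPC libraries, which makes its fold depend on the prior count of the fit. Dnah1 (-3.34), Spag6l (-3.31), Cfap70 (-3.16), Cfap61 (-3.12) and Cfap65 (-2.96) followed. Cfap54 (-1.67) and Dnah7a (-1.53) were lower. Of the ependymal markers tested, only Rarres2 (1.25) was called higher in OPCs, and the part of ependymal RNA there was not tested.

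In microglia the member that stood out was Cfap74, the central-pair gene lowered in Esr1 Otx2os1 neurons. It had 98.1, 93.8, 164 and 180 CPM against 26.2, 27.9, 22.8 and 24.8 in neurons (log2 difference 1.88, SE 0.19, adjusted p = 1.1e-07). Bbs9, a BBSome subunit, had 332, 206, 338 and 483 against 137, 136, 142 and 133 (0.77, SE 0.20), and Ift27 had 14.7, 11.04, 24.9 and 9.78 against 5.35, 4.42, 6.81 and 5.22 (0.92). These were the 3 higher calls, and none overlapped between the classes. For all 3 the log2 difference of the fit was smaller than the ratio of the printed CPM implies. The part of the fit's scaling in the number of lower calls in microglia was not tested. Lower members were Cfap161 (-2.84), Drc3 (-2.82), Cfap99 (-2.81), Rsph14 (-2.76), Dnah7c (-2.75) and Spag6l (-2.69), and both Cfap54 (-2.59) and Dnah7a (-2.36). Of the 6 BBSome genes 5 were called, and of these Bbs9 alone was higher. Of the 14 Ift genes 8 were called lower, among them Ift43 and Ift88. The summed CPM of the Ift genes in microglia was 0.81 to 0.94 times the neuronal sum, depending on the library. The ependymal markers Tmem212 (2.17), Rarres2 (2.17) and Ccdc153 (1.84) were called higher in microglia, while Foxj1, Dynlrb2 and Ak7 were not called. Their part in the microglial values was not tested.

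Genes whose levels were most alike those of Cfap54 and Dnah7a were found within and outside the members. Over 52 points (13 classes in 4 libraries), log2(CPM + 1) of Cfap54 correlated best among members with Dnah7a (r = 0.92), Dnah6 (0.89), Cfap61 (0.87), Drc1 (0.86) and Cfap46 (0.83). Outside the rule the nearest genes were 1810020O05Rik (0.85), Kif27 (0.82), Fsip1 (0.81), Ccdc57 (0.81) and Col6a5 (0.81). For Dnah7a they were Cfap54 (0.92), Dnah6 (0.90), Cfap46 (0.87), Cfap61 (0.86) and Ift81 (0.82) among members, and Col6a5 (0.85), Col8a2 (0.85), Rpgrip1l (0.84), Sptlc3 (0.83) and Lrrc43 (0.82) outside. The points share libraries, and the values rest in part on the 55 ependymal-like nuclei. Without that class (48 points) r between Cfap54 and Dnah7a was 0.84, and the others fell to 0.59 (Fsip1) to 0.77 (Dnah6) for Cfap54 and to 0.47 (Lrrc43) to 0.72 (Dnah6) for Dnah7a. These values are descriptions.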

How the data were processed

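The authors deposited UMI counts per gene and barcode, made per the labels with Cell Ranger 7.0.1 from nuclei isolated by sucrose gradient; whether intronic reads were counted is not given in the sources used here. From these counts, nuclei were kept if their gene number lay between 200 and 6000, their UMI number between 300 and 50000 and their mitochondrial share under 2%, and doublets were predicted from simulated pairs at 0.8% per 1000 nuclei and removed. Nuclei were clustered (leidenalg 0.10.2, 40 principal components of 3000 variable genes, 6 nearest nuclei per library, resolution 1) without the 95 members, mitochondrial and sex-linked genes and 68 genes that differed between strains, and clusters were named from marker genes. UMIs were summed per class and library and fitted across all genes with edgeR 4.0.16 in R 4.3.3 (filterByExpr, TMM, quasi-likelihood test, Benjamini-Hochberg adjustment). Class comparisons had 8 sums and the library as a block. Strain comparisons set the nude and BALB/c libraries against the 2 C57J libraries, and p-values then measure the spread between these pooled libraries. All tests were two-sided and the code was tested on simulated counts. DESeq2 1.42.0, no filter on low counts, batch as a term, leaving out each library, resolution 2, doublets kept, stricter limits on nuclei (more than 500 genes and 1000 UMIs) and nuclei with an ependymal marker UMI left out were tried as alternatives.

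The members and the lists were chosen with earlier results of these data known. Named were Cfap54 and Dnah7a, up to 6 called members per direction in each comparison, the 3 most abundant per class (10 in ependymal-like nuclei), uncalled members without overlap where under 6 were called between strains, and the 5 genes most alike. Genes outside the rule that are named were chosen after their values were seen. Start sites came from RefSeq GRCm38.p6 and gene positions from GENCODE M21. Of the 95 members, 89 passed the filter on low counts between classes (without Cfap58, Cfap73, Cfap97d1, Rsph6a, Spag11a and Spag11b) and 44 to 91 between strains.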

Additional observations from a re-analysis of the deposited data

Results flagged for a closer look

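Only the members named in the strain comparisons were searched for splits in opposite directions, and the remaining members were not. For 3 of those searched, every nude and BALB/c library lay on one side of both C57J libraries in 1 class and on the other side in another. The difference between the classes was not tested. None of the values below passed the limits of edgeR.

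Cfap20, a protein of the inner junction of doublet microtubules, had a log2 difference between the backgrounds of 0.55 in OPCs, -0.14 in LS neurons and -0.23 in other neurons. Dnah14 had 0.49 in OLs and -1.003 in astrocytes. Spag1, which takes part in dynein arm assembly, had 0.21 in other neurons, -0.45 in OLs and -0.49 in OPCs. With 2 libraries on each side, separation within a single class is common. Of all genes, 12.6% in OPCs and 19% in LS neurons lay wholly higher in the nude and BALB/c libraries. How many genes were separated in opposite directions in different classes was not counted.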

How the results depend on the processing

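Of the counts of called members recomputed under the alternatives, 111 stayed within 1.5 times the reported count and 15 did not. Of the fold changes of Cfap54 and Dnah7a, 230 kept their direction and side of the limit, 10 passed it anew, 11 no longer passed it and 1 turned. Between strains, leaving out 1 library each time gave 2 to 8 members in LS neurons (3 without nude, 2 without BALB/c), 5 to 9 in other neurons (9 without C57J 2), 0 to 8 in astrocytes, 0 in OLs each time, and 1 to 5 in OPCs (1 without C57J 1, 5 without nude). The lone sample of an arm was then assumed to vary like the others. Without the filter on low counts 11 members were called in other neurons, 5 in astrocytes and 2 in OLs. DESeq2 called 2 in astrocytes, 1 in OLs and 1 in OPCs, and in OPCs batch as a term gave 1 and stricter limits on nuclei 1. The shares of all genes called under these alternatives are not given here, so such counts are not read as a result about the members. At resolution 2 Dnah7a between LS and other neurons turned from 0.23 to -0.084, and the summed level of the Esr1 Otx2os1 LS neurons was 3821 in place of 2920.5. The cause was not tested.

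Without the replicate block (the library, which holds both classes compared), the members called were 23 in Esr1 Otx2os1 LS neurons (22 higher), 16 between LS and other neurons, 47 in astrocytes, 58 in OLs, 49 in OPCs and 50 in microglia, and this changed no count by over 1.5 times. No paired analysis was possible because nude and BALB/c have 1 library each in the strain comparisons. The 55 ependymal-like nuclei held 295847 UMIs, which limits the precision of their levels.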

Other observations

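Dividing and immature nuclei, which entered no comparison, had member profiles of their own. Dividing nuclei had a summed member level of 2413 ± 175 CPM (SD, n = 4 libraries) and neuroblast-like nuclei of 1956 ± 108. Spag5, the spindle protein also known as astrin, stood at 96.8 to 116 CPM in dividing nuclei (25 to 40 UMIs per library) and at 5.78 to 9.44 in astrocytes. Spag9 was the most abundant member in both, at a mean of 457 in dividing nuclei and 486 in neuroblasts.

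Among the remaining neurons the summed level was 2363 ± 157 in unnamed neurons, 2049 ± 247 in striatal neurons, 1627 ± 78.2 in cholinergic neurons, 1621 ± 93.2 in GABAergic neurons and 1459 ± 156 in glutamatergic neurons. Striatal neurons had about as much Cfap54 as LS neurons, at 69.3, 80.3, 361 and 362 CPM, but less Dnah7a, at 3.16, 6.69, 22.6 and 13.2. These values were not tested.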
